A study of Rattus norvegicus with 12 samples.

Results

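The genes described here are 32 rat genes of the glycolytic pathway and of the response to low oxygen, measured in prostate tissue. They were taken by name from the array's gene annotation, with Pkm listed there as Pkm2 and Ca9 as Car9. The rule itself uses no measured value, but the list was drawn up with earlier results of these data known. They are 32 of the 35561 distinct names on the array. Of these, 15 encode glycolytic enzymes and 17 are other genes known as targets or parts of the hypoxia response. All 32 had at least 1 probe above the detection filter, 40 probes in all, and each gene was read on its brightest probe.

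Glycolysis splits glucose into pyruvate in a chain of cytosolic enzymes, and lactate dehydrogenase turns pyruvate into lactate where oxygen is scarce or glycolysis runs fast. Most of these enzymes, together with glucose and lactate carriers, are classical targets of hypoxia-inducible factor (HIF), a transcription factor whose alpha subunit is hydroxylated by prolyl hydroxylases and degraded while oxygen is present. HIF binds short DNA elements with the core letters ACGTG or GCGTG. Macrophages and neutrophils are cells with high glycolysis, and HIF-1 alpha acts in both.

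Male rats aged 10 weeks carried either a rubber ring around the proximal urethra, which partly blocks the outflow of the bladder, or a sham operation. They were dosed with vehicle (0.1% Tween 80) or with Eviprostat, a plant-based drug taken for an enlarged prostate, at 18 mg/kg given 2 times a day for 5 days, and the prostate was taken 2 h after the last dose. The groups were obstruction/Eviprostat, obstruction/vehicle, sham/Eviprostat and sham/vehicle, each with 5 or 6 animals and 3 arrays. Dosing began the day after surgery in obstructed rats but 5 days after it in sham rats, so the operation and the time since surgery cannot be told apart. The labelling protocol speaks of RNA from pooled tissue of each group, and p-values therefore measure the spread between arrays, which may be technical. Labelling started from 300 ng of RNA for obstruction/Eviprostat, obstruction/vehicle and sham/Eviprostat and 1500 ng for sham/vehicle. In both comparisons against sham/vehicle this amount therefore cannot be told apart from the group. The comparison of the drug's differences in obstructed and sham rats also holds sham/vehicle, so the amount does not cancel there.

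Every array carried its own group's RNA in the Cy5 channel and sham/vehicle RNA in the Cy3 channel, with no dye swap. The log2 ratio of Cy5 to Cy3 is the level used below. Groups are compared with each other and not with 0. The sham/vehicle arrays, with the same RNA in both channels, themselves read off 0 for some genes (mean -0.49 for Tpi1 and 0.27 for P4ha2). Between 70.9% and 88.4% of probes were well above background in Cy5 on the 12 arrays. The arrays lay on 3 slides with 1 array of each group on each, at a position that was the same for a group on all slides, which cannot be told apart from the group, and slide 1 was scanned apart from slides 2 and 3. Replicate numbers are slide numbers. Of 10 marker genes of prostate secretory epithelium, each was above background on at least 1 array of every group.

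Glycolytic enzymes were higher in obstructed prostates given vehicle than in sham prostates given vehicle. Of the 15, 13 passed the test (adjusted p below 0.05 over all probes tested) and these 13 were higher, with a median difference over the 15 of 1.25 on the log2 scale. Among all 36098 probes tested, 11.6% passed, 7.16% higher and 4.45% lower, and the median difference was -0.012. The rises ran along the chain, and the widest were in its later steps, from triose phosphate to lactate. In tissue as a whole, more cells of a type and more RNA per cell cannot be told apart. Errors given with differences are standard errors of the fit over 12 arrays.

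Lactate dehydrogenase A, Ldha, which makes lactate from pyruvate, had log2 ratios of 2.03, 1.81 and 2.14 on the obstruction/vehicle arrays, against -0.09, -0.10 and -0.12 on the sham/vehicle arrays. The groups lay far apart, with little spread in either. The difference was 2.10 ± 0.09, or 4.28-fold (adjusted p = 5.3e-08). Phosphoglycerate kinase 1, Pgk1, the first ATP-forming step, read 2.02, 2.13 and 2.47 in obstruction/vehicle and -0.27, -0.10 and -0.05 in sham/vehicle. This was the widest gap among the enzymes, 2.34 ± 0.13 or 5.07-fold (adjusted p = 3.33e-07). Pyruvate kinase, Pkm, which forms pyruvate, read 1.70, 1.99 and 2.25 in obstruction/vehicle and -0.50, -0.06 and -0.09 in sham/vehicle, a difference of 2.20 ± 0.16 (adjusted p = 3.73e-06).

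**Figure D1:**
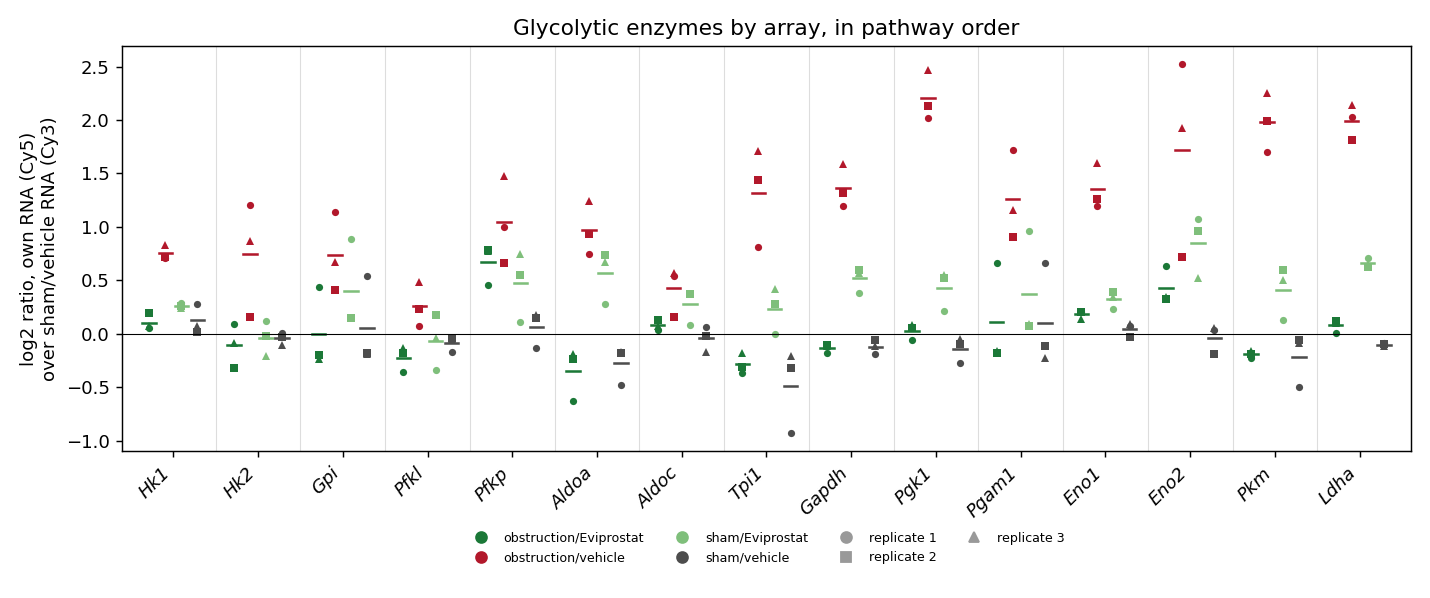
Log2 ratio of each glycolytic enzyme on each of the 12 arrays, in the order of the pathway, with 1 point per array, 1 bar per group mean and a marker shape per replicate. The obstruction/vehicle points lie above those of the other groups for most enzymes, with Ldha at 1.81 to 2.14 against -0.12 to -0.09 in sham/vehicle.

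Glyceraldehyde-3-phosphate dehydrogenase, Gapdh, often taken as a constant control gene, was higher by 1.49 ± 0.11 (2.81-fold, adjusted p = 2.87e-06). Its ratios were 1.19, 1.32 and 1.59 in obstruction/vehicle and -0.19, -0.06 and -0.12 in sham/vehicle. Triose phosphate isomerase, Tpi1, was higher by 1.81 ± 0.23 and the enolase Eno1 by 1.31 ± 0.11. The neuronal-type enolase Eno2 was higher by 1.76 ± 0.34, with array values of 2.52, 0.72 and 1.92 in obstruction/vehicle that spread more widely than those of most enzymes, against 0.03, -0.19 and 0.05 in sham/vehicle. Aldolase A, Aldoa, was higher by 1.25 ± 0.17 and phosphoglycerate mutase 1, Pgam1, by 1.16 ± 0.32. Gapdh, Pgk1, Pgam1 and other enzymes of this chain have processed copies in rodent genomes, and the array design placed the Pgam1 probes on different chromosomes, so signal from near-identical copies cannot be set apart.

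The steps at the head of the chain moved less. Hexokinase 1, Hk1, which traps glucose in the cell, was higher by 0.63 ± 0.09 (adjusted p = 0.000598), and the inducible hexokinase Hk2 by 0.79 ± 0.21 (adjusted p = 0.0308). The Hk2 ratios were 1.20, 0.16 and 0.87 in obstruction/vehicle and 0.01, -0.03 and -0.11 in sham/vehicle. Replicate 2 stood close to the sham/vehicle values and the other replicates well above them. The platelet phosphofructokinase Pfkp was higher by 0.98 ± 0.21 and aldolase C, Aldoc, by 0.47 ± 0.12. Glucose phosphate isomerase, Gpi, at 0.69 ± 0.28 (adjusted p = 0.146), and the liver phosphofructokinase Pfkl, at 0.34 ± 0.14 (adjusted p = 0.144), did not pass. With the slide as a block both passed (adjusted p = 5.49e-05 and 0.0176), as did 25.3% of all probes. Gpi read higher on slide 1 than on the other slides in every group, 0.44, 1.14, 0.89 and 0.54 on slide 1 for obstruction/Eviprostat, obstruction/vehicle, sham/Eviprostat and sham/vehicle.

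The calls of 3 enzymes were lost when single arrays were left out. The Hk2 call went without replicate 1 or 3 of obstruction/vehicle or without any 1 of the sham/vehicle arrays (0.56 to 0.82, adjusted p from 0.0607 to 0.118). The calls of Pgam1 (0.93 to 1.21, adjusted p from 0.093 to 0.151) and Aldoc (0.40 to 0.48, adjusted p from 0.0818 to 0.128) went without replicate 1 or 3 of obstruction/vehicle or replicate 2 or 3 of sham/vehicle. With each array centred on its median in place of the intensity-dependent normalization, 6 enzymes passed (Hk2, Pgk1, Pgam1, Eno2, Pkm and Ldha). Of all probes 4.95% passed with this centring.

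Of the 17 other hypoxia genes, 10 were higher in obstruction/vehicle than in sham/vehicle and 0 lower, with a median difference of 0.99. The widest differences were in a lactate carrier, a secreted peptide, a stress gene and a glucose carrier. Slc16a3, which encodes the lactate exporter MCT4 of glycolytic cells, read 3.09, 3.02 and 3.39 in obstruction/vehicle and -0.25, 0.13 and 0.04 in sham/vehicle. It had the widest difference of all 32 genes, 3.19 ± 0.14 or 9.15-fold (adjusted p = 5.3e-08). The glucose transporter Slc2a1 (GLUT1) read 2.32, 2.01 and 2.36 in obstruction/vehicle and 0.01, 0.02 and -0.01 in sham/vehicle. Its difference was 2.22 ± 0.10, 4.66-fold (adjusted p = 5.3e-08). Adrenomedullin, Adm, a vasodilator peptide, read 3.01, 2.20 and 2.97 in obstruction/vehicle and 0.21, 0.10 and 0.09 in sham/vehicle, and differed by 2.60 ± 0.17 (6.04-fold, adjusted p = 1.62e-06).

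**Figure D2:**
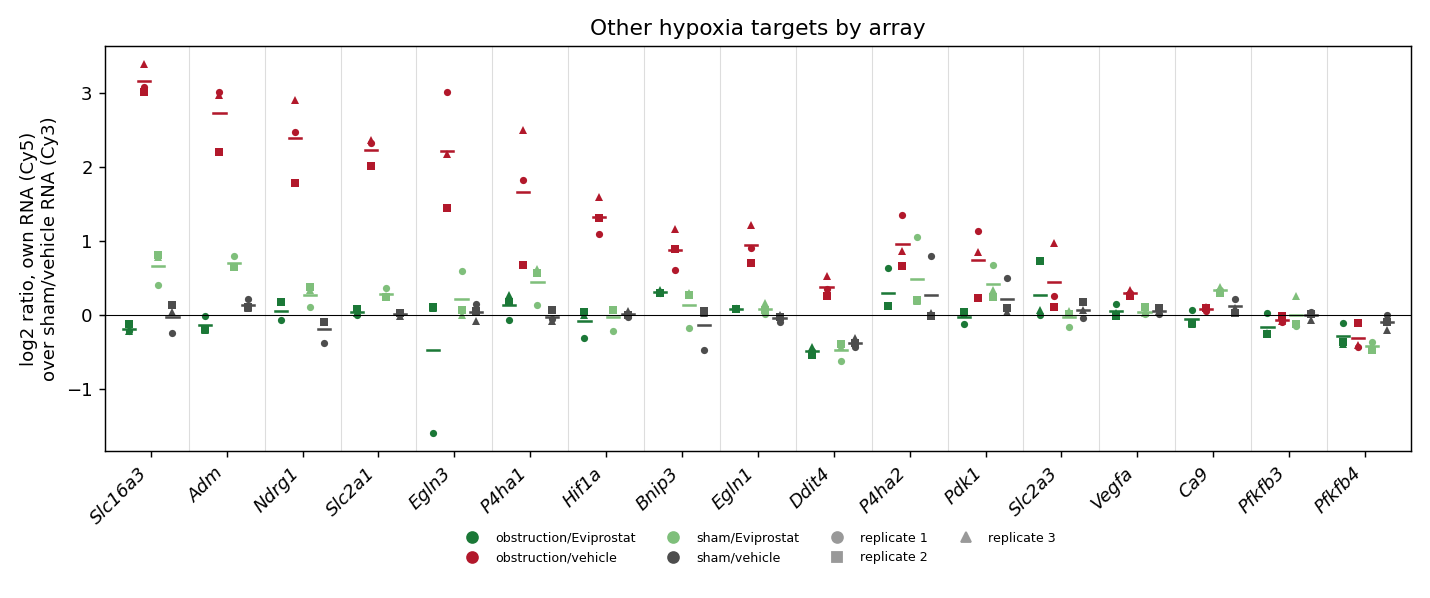
Log2 ratio of each other hypoxia gene on each array, ordered by the difference of obstruction/vehicle from sham/vehicle, with 1 point per array, 1 bar per group mean and a marker shape per replicate. Slc16a3 reads 3.02 to 3.39 in obstruction/vehicle, and Ca9, toward the right, reads -0.13 to 0.06 in obstruction/Eviprostat, 0.05 to 0.10 in obstruction/vehicle, 0.30 to 0.38 in sham/Eviprostat and 0.03 to 0.22 in sham/vehicle.

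Transcripts of Hif1a and of the oxygen sensors Egln1 and Egln3 also differed, and protein was not measured. The sensors Egln2 and Hif1an and the HIF subunits Epas1, Hif3a, Arnt and Arnt2, counted below in the HIF machinery, did not pass. Hif1a, the oxygen-controlled subunit of HIF-1, read 1.09, 1.31 and 1.59 in obstruction/vehicle and -0.03, 0.00 and 0.05 in sham/vehicle, a difference of 1.32 ± 0.14 (adjusted p = 6.08e-05). Of the prolyl hydroxylases that mark HIF for degradation, Egln1 and Egln3, themselves HIF targets, were higher. The differences were 0.99 ± 0.11 for Egln1 and 2.17 ± 0.44 for Egln3 (adjusted p = 0.00687). Egln3 read 3.01, 1.45 and 2.18 in obstruction/vehicle and 0.14, 0.05 and -0.08 in sham/vehicle, so the groups did not overlap although the obstruction/vehicle arrays spread widely. The other 4 that passed were Ndrg1, a stress-responsive gene, at 2.59 ± 0.23, the collagen prolyl hydroxylase subunit P4ha1 at 1.68 ± 0.34, the mitophagy receptor Bnip3 at 1.02 ± 0.18, and the mTORC1 inhibitor Ddit4 at 0.75 ± 0.09. With median centring 6 of the 10 passed, and Bnip3, Egln1, Ddit4 and Hif1a did not (adjusted p from 0.0642 to 0.298).

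The remaining 7 of the 17 did not pass. The carbonic anhydrase Ca9, one of the best known HIF targets, read 0.05, 0.09 and 0.10 in obstruction/vehicle and 0.22, 0.03 and 0.09 in sham/vehicle. Its difference was -0.03 ± 0.08, with a 95% interval from -0.21 to 0.15. The bifunctional enzymes that set fructose 2,6-bisphosphate, an activator of phosphofructokinase, were at -0.06 ± 0.12 (Pfkfb3) and -0.22 ± 0.11 (Pfkfb4). The glucose transporter Slc2a3, well above background on 9 of 12 arrays, was at 0.37 ± 0.22. The pyruvate dehydrogenase kinase Pdk1 (0.53 ± 0.21, adjusted p = 0.127) and the collagen prolyl hydroxylase subunit P4ha2 (0.69 ± 0.28, adjusted p = 0.152) passed with the slide as a block (adjusted p = 0.0245 and 0.000163).

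The angiogenic factor Vegfa gave different readings on its probes. The brightest probe read 0.30, 0.26 and 0.33 in obstruction/vehicle and 0.01, 0.09 and 0.05 in sham/vehicle, a difference of 0.24 ± 0.08 (adjusted p = 0.0623, and 0.0306 with the slide as a block). A dimmer probe, spotted 10 times on each array, differed by 0.99 (adjusted p = 0.00808). The pair is shown because it lies at different places of the same transcript in the array's design, built on rn3, both on the plus strand: the brightest at chr9:10519066-10519125, opening with the start codon, the other between 10525902 and 10526287 of the same chromosome, further along the gene.
Vegfa, brightest probe: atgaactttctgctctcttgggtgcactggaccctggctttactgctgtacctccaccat
Vegfa, dimmer probe: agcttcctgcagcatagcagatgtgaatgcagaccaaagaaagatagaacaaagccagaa
Ndrg1 was also uneven, with 2.59 on the brightest probe and 0.46 (adjusted p = 0.036) on the dimmer one. The other genes with more than 1 probe had both probes higher: Eno1 1.31 and 1.78, Gapdh 1.49 and 1.37, Hif1a 1.32 and 1.09, Hk1 0.63 and 0.50, Pgam1 1.16 and 0.92, and Gpi 0.69 and 0.78, where the dimmer Gpi probe passed (adjusted p = 0.000862).

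RefSeq promoters (build GRCr8) were listed for 28 of the 32 genes, with more than 1 start for 4 of them, 33 in all. In the 250 bases before the start, the letters ACGTG or GCGTG on either strand were found in 20 of these 33 promoters, 60.6%, against 36.7% of all 33469 promoters of the same length. By gene, 19 of 28 had them in at least 1 promoter and 9 in none. The promoters below show both sorts among genes with wide differences, written 5′ to 3′ on the gene's strand, with the matched letters in capitals. CACGTG holds 2 overlapping matches.
Ldha, chr1:106507842-106508091, plus strand: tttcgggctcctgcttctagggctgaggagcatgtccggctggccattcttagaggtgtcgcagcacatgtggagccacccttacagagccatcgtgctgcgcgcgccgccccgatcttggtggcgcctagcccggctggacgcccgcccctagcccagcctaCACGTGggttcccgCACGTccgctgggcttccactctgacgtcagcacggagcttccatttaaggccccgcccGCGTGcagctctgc
Slc2a1, chr5:138002272-138002521, plus strand: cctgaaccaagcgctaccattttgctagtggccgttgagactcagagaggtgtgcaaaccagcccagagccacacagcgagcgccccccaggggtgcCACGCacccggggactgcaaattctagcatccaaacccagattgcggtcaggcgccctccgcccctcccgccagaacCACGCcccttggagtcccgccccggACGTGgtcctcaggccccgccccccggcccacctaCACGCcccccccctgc
Slc16a3, chr10:106712078-106712327, plus strand: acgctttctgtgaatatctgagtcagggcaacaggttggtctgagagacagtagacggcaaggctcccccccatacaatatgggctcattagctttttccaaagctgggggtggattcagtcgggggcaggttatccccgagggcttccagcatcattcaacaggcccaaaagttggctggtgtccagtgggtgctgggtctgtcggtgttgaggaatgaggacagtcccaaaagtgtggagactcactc
Adm, chr1:174179950-174180199, plus strand: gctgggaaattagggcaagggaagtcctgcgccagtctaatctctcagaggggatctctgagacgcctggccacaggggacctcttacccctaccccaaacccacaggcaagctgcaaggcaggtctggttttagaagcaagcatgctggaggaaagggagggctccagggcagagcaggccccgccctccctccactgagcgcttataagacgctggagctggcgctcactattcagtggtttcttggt
Ldha held 4 matches, at positions -87, -86, -73 and -14 from the start, and Slc2a1 held 4, at -153, -76, -51 and -16. Slc16a3 and Adm, both with wider differences than Ldha, held none in this window. Of the promoters of genes that were higher in obstruction/vehicle, 16 of 25 (64.0%) held the letters, and of those of genes that did not pass, 4 of 8. A match here is a description of letters and not of binding, and the promoters compared were not matched for base composition.

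Genes around the pathway did not share one direction. Among 13 other isoforms of glycolytic enzymes tested, 2 were higher and 2 lower. The myeloid hexokinase Hk3 was higher by 1.59 ± 0.27 and Bpgm, which makes 2,3-bisphosphoglycerate, by 1.81 ± 0.28. The muscle enolase Eno3 read -2.45, -2.10 and -1.90 in obstruction/vehicle and -0.06, -0.13 and 0.05 in sham/vehicle, lower by 2.10 on the log2 scale (difference -2.10 ± 0.12, adjusted p = 5.89e-07). The muscle mutase Pgam2 differed by -1.76 ± 0.15. Eno3 and Pgam2 were lower where Eno1, Eno2 and Pgam1 were higher.

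Of 16 tested genes for the entry of pyruvate into mitochondria, 0 passed in limma's test and 4 had an unadjusted p under 0.05, with a median of -0.06. Of 12 genes of the pentose phosphate path and gluconeogenesis, the transketolase Tkt was higher (1.03 ± 0.19) and the muscle-type fructose bisphosphatase Fbp2 lower (-0.77 ± 0.16). Of 11 further carriers, Slc2a6, which encodes GLUT6, was higher by 2.52 ± 0.46 and the lactate carrier Slc16a1 by 0.95 ± 0.24, and the fructose carrier Slc2a5 differed by -1.52 ± 0.21. Of 13 genes of the HIF machinery, 1 passed, the elongin C gene Eloc at -0.56 ± 0.09. Of 25 further hypoxia targets tested, 16 were higher and 0 lower, led by the thiol oxidase Ero1a (2.89 ± 0.30), the collagen cross-linker Lox (1.85 ± 0.19) and the repressor Bhlhe40 (1.82 ± 0.30). In the plot of lists the medians of the members and of these further targets lie above 0 and those of the remaining lists nearer to it.

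**Figure D3:**
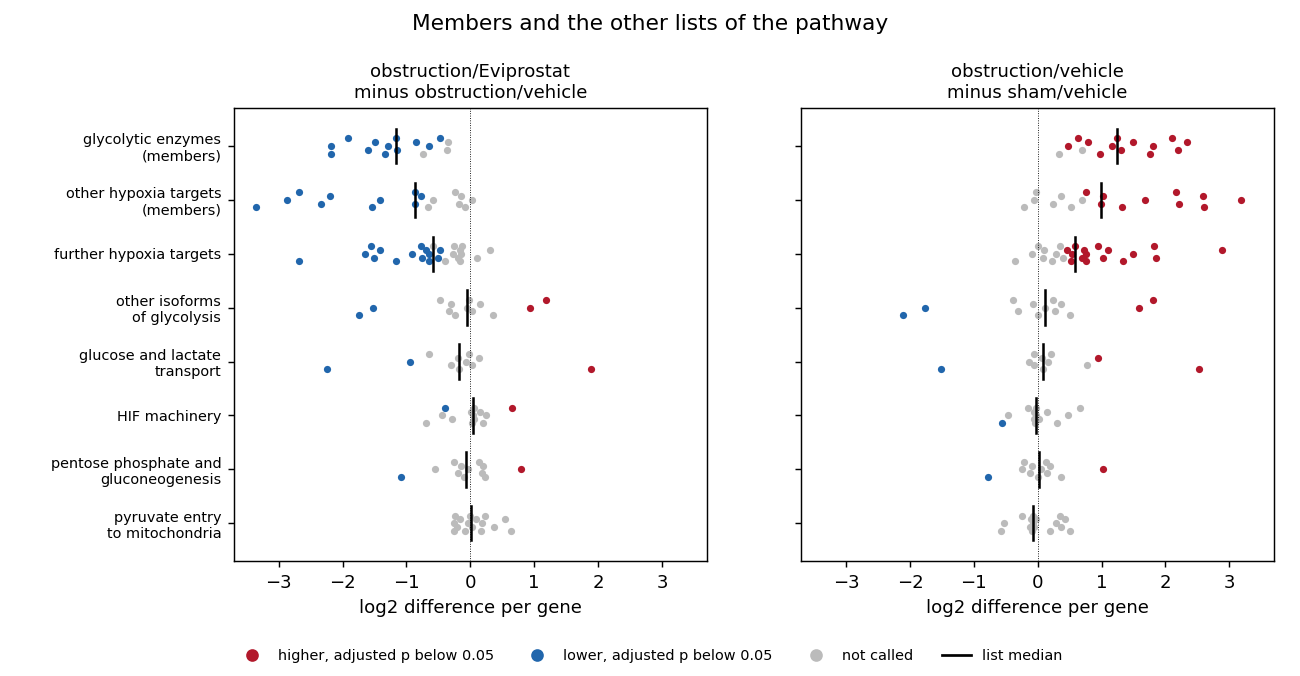
Log2 difference of each tested gene in the 2 member lists and 6 related lists, obstruction/Eviprostat minus obstruction/vehicle at the left and obstruction/vehicle minus sham/vehicle at the right, coloured by the adjusted p and with a bar at each list's median. The list medians at the right run from 1.25 for the glycolytic enzymes to -0.06 for pyruvate entry.

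Markers of other cell types moved in the same comparison. All 12 tested macrophage genes were higher in obstruction/vehicle than in sham/vehicle, and their summed Cy5 signal was 430000 to 508000, against 18400 to 19500. These sums are not scaled between arrays, and the median Cy5 signal over probes was 216 to 232 on obstruction/vehicle arrays and 114 to 123 on sham/vehicle arrays, so ratios of sums are not fold changes. Of 8 tested neutrophil genes 6 were higher, with sums of 120000 to 142000 against 694 to 944. S100a8, Fpr1 and Mmp8 were above background on obstruction/vehicle arrays only. Those of them that were tested passed the detection filter through that group alone. Neutrophil counts that involve obstruction/vehicle, here and below, are therefore not independent of the filter. Fibroblast genes (8 of 10 higher), smooth muscle genes (6 of 7), seminal vesicle genes (5 of 7) and urothelial genes (3 of 5) also rose. By list median the seminal vesicle genes moved most, at 4.78, then the urothelial genes at 2.88, against 1.73 for the macrophage genes. Lower were 9 of 11 skeletal muscle genes and 4 of 10 prostate epithelial genes. Of 7 endothelial genes 2 were higher and 1 lower. Of 3 red blood cell genes 0 passed in limma's test and 2 had an unadjusted p under 0.05. Summed skeletal muscle signal was 54100 to 56000 in obstruction/vehicle and 74200 to 76400 in sham/vehicle, while the median log2 difference of the list on normalized ratios was -1.58. The part of these cells in the members' differences was not tested.

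With Eviprostat, obstructed prostates had lower levels of the same pathway than obstructed prostates with vehicle. Of the 15 glycolytic enzymes 12 were lower and 0 higher, with a median of -1.17, and of the 17 other genes 10 were lower and 0 higher, with a median of -0.86. Of all probes tested, 9.8% passed, 3.9% higher and 5.89% lower, with a median of 0.011. This comparison uses the same obstruction/vehicle arrays as the one above, so the values of each gene in the 2 are set side by side in the plot of differences and no relation between them is given.

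Slc16a3 read -0.22, -0.12 and -0.22 in obstruction/Eviprostat, against 3.09, 3.02 and 3.39 in obstruction/vehicle, a difference of -3.35 ± 0.14 (10.2-fold lower, adjusted p = 3.77e-08). Adm read -0.02, -0.19 and -0.21 in obstruction/Eviprostat, against 3.01, 2.20 and 2.97 in obstruction/vehicle, and differed by -2.87 ± 0.17. The sham/vehicle arrays read -0.25, 0.13 and 0.04 for Slc16a3 and 0.21, 0.10 and 0.09 for Adm. Obstruction/Eviprostat was not tested against sham/vehicle. Slc2a1 read 0.00, 0.08 and 0.03 in obstruction/Eviprostat, against 2.32, 2.01 and 2.36 in obstruction/vehicle (-2.19 ± 0.10). Ldha read 0.01, 0.12 and 0.10 in obstruction/Eviprostat, against 2.03, 1.81 and 2.14 in obstruction/vehicle (-1.92 ± 0.09, adjusted p = 1.23e-07). Pgk1 and Pkm differed by -2.18 ± 0.13 and -2.18 ± 0.16, Tpi1 by -1.61 ± 0.23, Gapdh by -1.5 ± 0.11, Aldoa by -1.33 ± 0.17 and Eno1 by -1.17 ± 0.11.

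**Figure D4:**
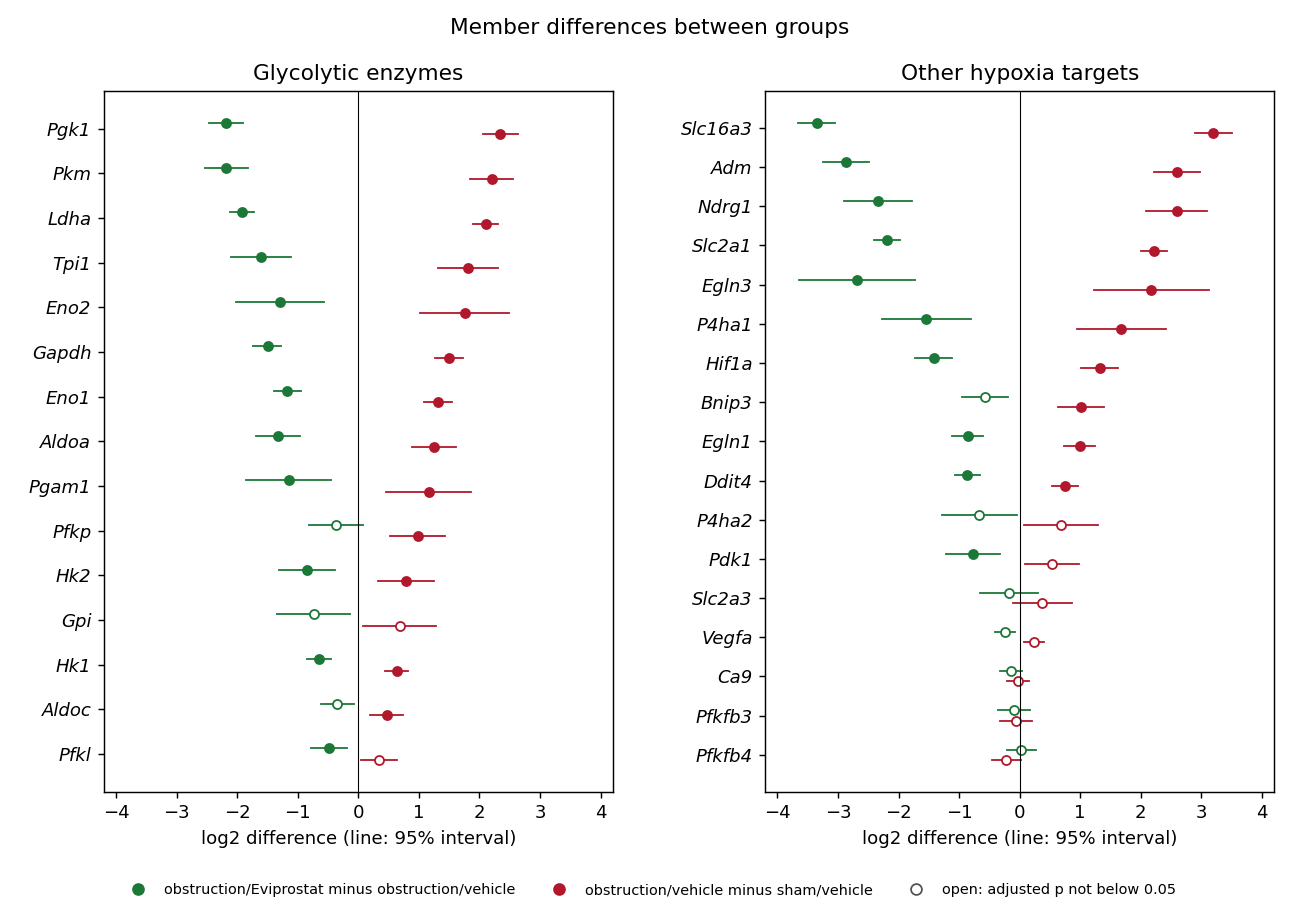
Log2 differences of the 32 genes, obstruction/Eviprostat minus obstruction/vehicle (green) and obstruction/vehicle minus sham/vehicle (red), with 95% intervals from the fit over 12 arrays and open points where the adjusted p was not below 0.05. Both contrasts share the obstruction/vehicle arrays. Slc16a3 stands at -3.35 and 3.19.

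Hif1a differed by -1.42 ± 0.14, with -0.31, 0.04 and 0.00 in obstruction/Eviprostat against 1.09, 1.31 and 1.59 in obstruction/vehicle. Egln1 differed by -0.86 ± 0.11 and Ddit4 by -0.87 ± 0.09. Ndrg1, read on 2 obstruction/Eviprostat arrays because the spot on the remaining array was left out as an outlier, differed by -2.34 ± 0.26, and its dimmer probe by -0.45 (adjusted p = 0.0437). Egln3 read -1.60, 0.10 and 0.09 in obstruction/Eviprostat, where replicate 1 stood far below the others, and differed by -2.68 ± 0.44 (adjusted p = 0.00214). Its Cy3 signal was unequal between groups, at a mean log2 of 10.51 on obstruction/Eviprostat arrays and 9.15 on obstruction/vehicle arrays although both carried the same sham/vehicle RNA, and in Cy5 alone the difference was -1.31 (adjusted p = 0.365). P4ha1 (-1.54 ± 0.34) and Pdk1 (-0.77 ± 0.21) completed the 10.

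The genes without a call in this comparison were of several kinds. Pfkp stayed above its sham/vehicle values in obstruction/Eviprostat, at 0.46, 0.78 and 0.77, against 1.00, 0.66 and 1.48 in obstruction/vehicle, and these groups overlapped (-0.37 ± 0.21, adjusted p = 0.325). Bnip3 read 0.30, 0.29 and 0.34 in obstruction/Eviprostat, against 0.60, 0.89 and 1.16 in obstruction/vehicle (-0.58 ± 0.18, adjusted p = 0.0616), and passed with the slide as a block (adjusted p = 0.00206). So did Gpi (-0.74, adjusted p = 3.35e-05), P4ha2 (-0.67, adjusted p = 0.000235) and Vegfa (-0.24, adjusted p = 0.0337), and the dimmer Vegfa probe differed by -0.99 (adjusted p = 0.00954). Of all probes 23.5% passed with the block. Aldoc was at -0.35 ± 0.12 (adjusted p = 0.109). Slc2a3, Pfkfb3, Pfkfb4 and Ca9 lay between -0.18 and 0.03.

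Leaving out single arrays ended 5 calls. With median centring 6 enzymes and 7 other genes passed, and 3.68% of all probes. Eno2 (-0.89 to -1.39, adjusted p from 0.0555 to 0.118) and Pdk1 (-0.57 to -0.80, adjusted p from 0.0925 to 0.133) lost theirs without any 1 of the obstruction/Eviprostat arrays or replicate 1 or 3 of obstruction/vehicle. Pfkl (-0.37 to -0.53, adjusted p from 0.0543 to 0.188) lost its call without any 1 of the obstruction/Eviprostat arrays or replicate 2 or 3 of obstruction/vehicle. Hk2 (-0.62 to -0.86, adjusted p from 0.0792 to 0.112) and Pgam1 (-0.92 to -1.20, adjusted p from 0.103 to 0.17) lost theirs without replicate 2 or 3 of obstruction/Eviprostat or replicate 1 or 3 of obstruction/vehicle.

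The other lists again split. Of the 25 further hypoxia targets 14 were lower and 0 higher, with Ero1a at -2.69 ± 0.30, the early response gene Ier3 at -1.65 ± 0.10 and Bhlhe40 at -1.56 ± 0.30. Of 16 genes of pyruvate entry 0 passed in limma's test and 0 had an unadjusted p under 0.05. Hk3 (-1.52 ± 0.27) and Bpgm (-1.75 ± 0.28) were lower and Eno3 (1.19 ± 0.12) and Pgam2 (0.94) higher. Among carriers Slc2a6 (-2.25 ± 0.46) and Slc2a10 (-0.94 ± 0.26) were lower and Slc2a5 (1.89 ± 0.21) higher. In the HIF machinery Eloc was higher (0.65 ± 0.09) and Ep300 lower (-0.39 ± 0.09). Tkt was lower (-1.08 ± 0.19) and Fbp2 higher (0.79 ± 0.16). Of the cell type markers, 11 of 12 macrophage genes and 6 of 8 neutrophil genes were lower, with summed Cy5 signals of 27400 to 30200 and 963 to 1310 in obstruction/Eviprostat, against 430000 to 508000 and 120000 to 142000 in obstruction/vehicle. Some of the 8 neutrophil genes passed the detection filter only through obstruction/vehicle. Seminal vesicle genes (5 of 7, list median -4.51), fibroblast genes (7 of 10) and smooth muscle genes (5 of 7) were lower too. So were urothelial genes (3 of 5, list median -1.66) and 2 of 7 endothelial genes. Higher were 6 of 11 skeletal muscle genes and 5 of 10 prostate epithelial genes. Of 3 red blood cell genes 0 passed in limma's test and 0 had an unadjusted p under 0.05. The part of all these cell types in the members' differences was not tested.

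In sham-operated rats the drug went with small rises of a few enzymes. Of the 15 glycolytic enzymes 3 were higher in sham/Eviprostat than in sham/vehicle and 0 lower, with a median of 0.41. Of the 17 other genes 1 was higher, with a median of 0.21. Of all probes 1.53% passed, 0.87% higher and 0.659% lower, with a median of 0.001. Ldha read 0.71, 0.62 and 0.65 in sham/Eviprostat, against -0.09, -0.10 and -0.12 in sham/vehicle (0.76 ± 0.09, 1.70-fold, adjusted p = 0.0012). Gapdh read 0.38, 0.60 and 0.57 in sham/Eviprostat, against -0.19, -0.06 and -0.12 in sham/vehicle (0.64 ± 0.11, adjusted p = 0.00952). The groups did not overlap for either gene. Aldoa differed by 0.84 ± 0.17 (adjusted p = 0.0279) and Slc16a3 by 0.69 ± 0.14 (adjusted p = 0.0293).

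The Ldha call held with each array left out, but with median centring 0 members passed in limma's test (2 enzymes and 1 other gene at an unadjusted p under 0.05). The Aldoa call (0.74 to 0.89, adjusted p from 0.0842 to 0.144) and the Slc16a3 call (0.58 to 0.77, adjusted p from 0.059 to 0.148) were lost without replicate 2 or 3 of sham/Eviprostat or any 1 of the sham/vehicle arrays. The Gapdh call (0.60 to 0.64, adjusted p from 0.0542 to 0.0643) was lost without replicate 2 or 3 of sham/Eviprostat or replicate 3 of sham/vehicle. With the slide as a block 7 glycolytic enzymes and 2 other genes passed, the additions being Gpi (0.34), Tpi1 (0.72), Pgk1 (0.57), Pkm (0.63) and Adm (0.57), with adjusted p of 0.0229, 0.00335, 0.00181, 0.00257 and 0.0299. Of all probes 6.32% passed with the block and 0.177% with median centring.

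The muscle isoforms were higher in the same comparison. Eno3 read 1.07, 1.19 and 1.24 in sham/Eviprostat, against -0.06, -0.13 and 0.05 in sham/vehicle (1.21 ± 0.12, adjusted p = 0.000334). Pgam2 differed by 0.91 ± 0.15 and the muscle phosphofructokinase Pfkm by 0.68 ± 0.12. Of 11 skeletal muscle markers 8 were higher, with summed Cy5 signals of 208000 to 257000 in sham/Eviprostat and 74200 to 76400 in sham/vehicle. Seminal vesicle genes (5 of 7, list median 2.74), smooth muscle genes (3 of 7) and fibroblast genes (2 of 10) were higher as well. Of 25 further hypoxia targets 0 passed in limma's test (4 at an unadjusted p under 0.05), and of 12 macrophage genes 0 (3 at an unadjusted p under 0.05). Aldolase A, the main aldolase of skeletal muscle, stands among the members called here, and the part of these tissues in the values was not tested.

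**Figure D5:**
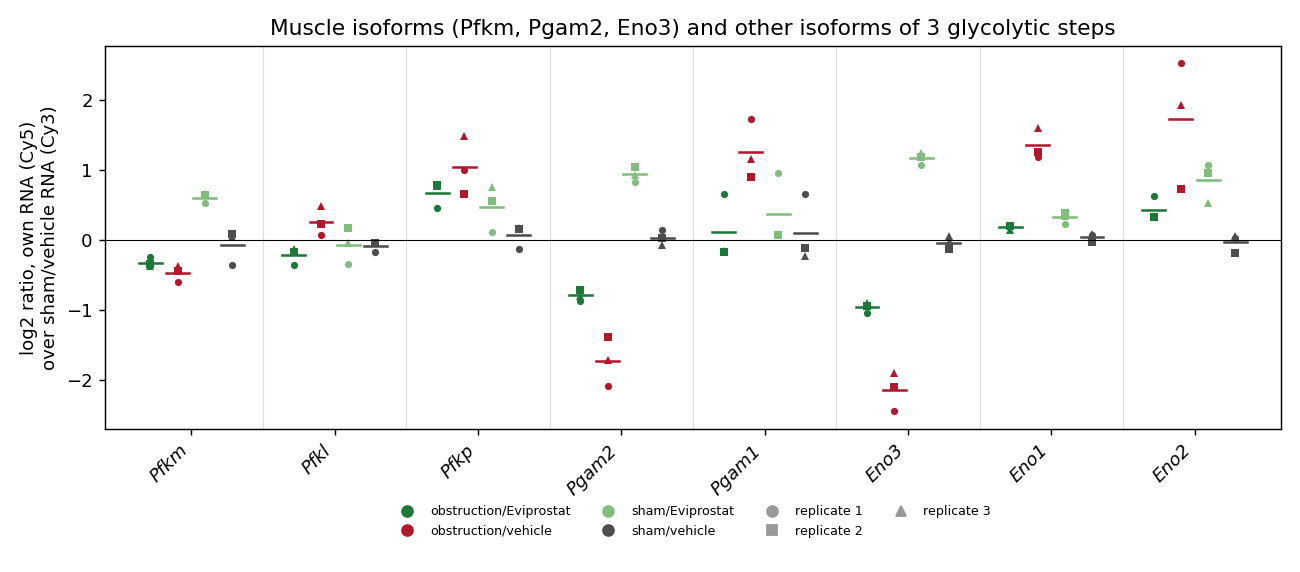
Log2 ratio on each array of muscle isoforms (Pfkm, Pgam2, Eno3) beside other isoforms of the same 3 glycolytic steps, with 1 point per array, 1 bar per group mean and a marker shape per replicate. Eno3 lies at -2.45 to -1.90 in obstruction/vehicle and 1.07 to 1.24 in sham/Eviprostat, while Eno1 is highest in obstruction/vehicle.

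With the drug in both, few members differed between obstructed and sham prostates. Of the 15 glycolytic enzymes 3 were lower in obstruction/Eviprostat than in sham/Eviprostat and 0 higher, with a median of -0.40. Of the 17 other genes 3 were lower, with a median of -0.19. Of all probes 2.28% passed, 0.97% higher and 1.31% lower, with a median of 0.006. Ldha read 0.01, 0.12 and 0.10 in obstruction/Eviprostat, against 0.71, 0.62 and 0.65 in sham/Eviprostat (-0.59 ± 0.09, adjusted p = 0.0051). Gapdh differed by -0.66 ± 0.11 and Aldoa by -0.92 ± 0.17 (adjusted p = 0.013). Slc16a3 read -0.22, -0.12 and -0.22 in obstruction/Eviprostat, against 0.40, 0.81 and 0.78 in sham/Eviprostat (-0.85 ± 0.14, adjusted p = 0.00682). Adm differed by -0.84 ± 0.17 (adjusted p = 0.0259).

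Ca9, which passed in none of the comparisons above, passed here at -0.39 ± 0.08 (adjusted p = 0.0299). It read 0.06, -0.11 and -0.13 in obstruction/Eviprostat, against 0.34, 0.30 and 0.38 in sham/Eviprostat. The Adm call was lost without any 1 of the 6 arrays compared (-0.79 to -0.90, adjusted p from 0.0531 to 0.128). The Ca9 call was lost without any 1 of them but replicate 1 of obstruction/Eviprostat (-0.36 to -0.41, adjusted p from 0.0639 to 0.162), and the Aldoa call without replicate 1 of obstruction/Eviprostat or replicate 2 or 3 of sham/Eviprostat (-0.78 to -0.87, adjusted p from 0.0521 to 0.0723). With the slide as a block 7 glycolytic enzymes were lower, the additions being Gpi (-0.40), Tpi1 (-0.52), Pgk1 (-0.40) and Pkm (-0.61), with adjusted p of 0.0076, 0.0172, 0.0109 and 0.00255. Of all probes 8.75% passed with the block and 0.388% with median centring. Of 11 skeletal muscle markers 9 were lower, with sums of 56000 to 58900 in obstruction/Eviprostat and 208000 to 257000 in sham/Eviprostat, and Eno3 differed by -2.13 ± 0.12. Seminal vesicle genes (5 of 7, list median -2.78) were lower too, and the part of these tissues was not tested. With median centring 0 members passed in limma's test, 0 enzymes and 2 other genes having an unadjusted p under 0.05.

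The drug's difference in obstructed rats was set against its difference in sham rats by the interaction term. Since this holds sham/vehicle, the unequal amount of labelled RNA does not cancel in it. The term passed for 10 glycolytic enzymes and 9 other genes, in all of them with a lower value in the obstructed rats. The list medians were -1.45 and -0.98. Of all probes 8.66% passed, 3.78% higher and 4.89% lower. Slc16a3 had the term farthest from 0, -4.04 ± 0.20 (adjusted p = 2.07e-07). Genes whose term did not pass were Hk2, Gpi, Pfkl, Pfkp and Pgam1 among the enzymes and Vegfa, Slc2a3, Pdk1, Pfkfb3, Pfkfb4, Bnip3, P4ha2 and Ca9 among the others. With median centring 4 enzymes and 7 other genes passed, and the calls of Hk1, Aldoa, Aldoc, Tpi1, Gapdh, Eno1, Egln1, Ddit4 and Hif1a were lost (adjusted p from 0.102 to 0.64). With the slide as a block 15 enzymes and 13 other genes passed, the additions with adjusted p from 5.48e-06 (Pgam1) to 0.0286 (Ca9), and Vegfa, Slc2a3, Pfkfb3 and Pfkfb4 did not. Of all probes 21.9% passed with the block and 2.82% with median centring. In the same term 10 of 12 macrophage genes, 5 of 8 neutrophil genes, 7 of 10 fibroblast genes and 6 of 7 smooth muscle genes were lower. So were 5 of 7 seminal vesicle genes, with a list median of -7.57, and 3 of 5 urothelial genes. Of 10 prostate epithelial genes 4 were higher, and of 7 endothelial genes 1 was higher and 2 lower. Some of the 8 neutrophil genes passed the detection filter only through obstruction/vehicle. The part of these cells in the members' terms was not tested.

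Replicate slides pointed the same way for most members. Within each of the 3 slides, obstruction/vehicle exceeded sham/vehicle for 15 of 15 enzymes and 13 of 17 other genes, and obstruction/Eviprostat lay below obstruction/vehicle for 14 of 15 and 12 of 17. Ndrg1, without an obstruction/Eviprostat value on slide 3, is not among the 12, and was lower on slides 1 and 2 (-2.54 and -1.61). The exception among the enzymes was Pfkp on slide 2 (0.13). These slide counts were made for the members only, so they cannot be set against the share over all probes. With median centring in place of the intensity-dependent normalization, the probes called in obstruction/vehicle against sham/vehicle were split 1613 higher and 175 lower, against 2583 and 1608 with it, and in obstruction/Eviprostat against obstruction/vehicle 132 higher and 1197 lower, against 1409 and 2127. With the scanner software's own ratio the splits were 5928 higher and 8552 lower in the first of these comparisons and 7821 and 5700 in the other. The interaction probes were split 107 higher and 910 lower with median centring, against 1363 and 1764. In sham/Eviprostat against sham/vehicle the split was 62 and 2, against 314 and 238, and in obstruction/Eviprostat against sham/Eviprostat 33 and 107, against 350 and 473.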

How the data were processed

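RNA from rat prostate was hybridised to 12 two-colour arrays, 3 in each of 4 groups. The deposited scanner files hold spot and background intensities and a log10 ratio of Cy5 to Cy3 per spot, made with Agilent Feature Extraction 9.5.1.1 per the submitters' processing notes. The deposited value table holds the same log10 ratios (largest difference 0). From the mean and local background intensities, limma 3.58.1 in R 4.3.3 applied normexp (offset 50) and loess within arrays. Control spots had weight 0 and outlier spots were left out. Spots of a probe were averaged. Of 41012 probes, 36098 with Cy5 well above background on at least 3 arrays were tested with lmFit and eBayes, with 1 mean per group over all arrays and Benjamini-Hochberg adjustment at 0.05. A gene was read on its brightest probe. Slides pair the arrays: all 18 correlations between same-numbered arrays' deviations from group means exceeded 0.1 (median 0.4625, lowest 0.155). The scripts were tested on simulated data with independent arrays and in 1 comparison, so that test does not cover the pairing by slide. The members and the lists were chosen with earlier results of these data known. All members were named. Of each other pathway list, genes that passed in a comparison were named, mainly from the 3 with the widest difference. Not all of those 3 are given in every comparison. The number of arrays limits the precision. Alternatives were median centring, the scanner's ratio, Cy5 alone, no background correction, other filters, the mean of probes, the slide as a block, slides 2 and 3 only, the compared arrays only, and each array left out.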

Additional observations from a re-analysis of the deposited data

Results flagged for a closer look

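For 19 of the 32 genes, 10 enzymes and 9 others, the difference made by Eviprostat in obstructed rats differed from its difference in sham rats by limma's interaction term. Of all probes 8.66% passed this term, 3.78% higher and 4.89% lower. With median centring 9 of the 19 calls were lost, those of Hk1, Aldoa, Aldoc, Tpi1, Gapdh, Eno1, Egln1, Ddit4 and Hif1a (adjusted p from 0.102 to 0.64). Cell type markers also passed in this term, among them 10 of 12 macrophage genes, 5 of 8 neutrophil genes and 5 of 7 seminal vesicle genes, all lower. The seminal vesicle list had a median of -7.57. Some of the 8 neutrophil genes passed the detection filter only through obstruction/vehicle. The part of these markers was not tested. The term holds sham/vehicle, so the unequal amount of labelled RNA does not cancel in it. Each value below is (obstruction/Eviprostat minus obstruction/vehicle) minus (sham/Eviprostat minus sham/vehicle) on the log2 scale.

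Among the enzymes the term was -0.79 for Hk1, -2.17 for Aldoa, -0.67 for Aldoc, -2.33 for Tpi1, -2.15 for Gapdh, -2.74 for Pgk1, -1.45 for Eno1, -2.18 for Eno2, -2.81 for Pkm and -2.68 for Ldha. Their adjusted p ran from 2.02e-07 for Ldha to 0.036 for Aldoc. The Aldoc call was lost without any 1 of 9 arrays (-0.59 to -0.70, adjusted p from 0.0704 to 0.101), and held without replicate 2 of obstruction/vehicle, replicate 1 of sham/Eviprostat or replicate 1 of sham/vehicle.

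Among the other genes it was -3.44 for Adm, -2.47 for Slc2a1, -4.04 for Slc16a3, -0.99 for Egln1, -2.86 for Egln3, -2.0 for P4ha1, -2.81 for Ndrg1, -0.76 for Ddit4 and -1.39 for Hif1a. The dimmer Ndrg1 probe had a term of -0.56 and did not pass (adjusted p = 0.0807). For Egln3, replicate 1 of obstruction/Eviprostat read -1.60, against 0.10 and 0.09 on the other replicates. Its mean log2 Cy3 signal was 10.51 in that group and 8.77 to 9.15 in the other groups. The Egln3 term ran from -3.32 to -1.49 over the settings run. The P4ha1 call was lost without replicate 1 or 2 of obstruction/Eviprostat, replicate 1 of obstruction/vehicle, or replicate 2 or 3 of either sham group (-1.90 to -2.05, adjusted p from 0.0506 to 0.0598).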

How the results depend on the processing

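No member's call turned direction under the alternatives run. Median centring gave 6 enzymes and 6 other genes in obstruction/vehicle against sham/vehicle, 6 enzymes in obstruction/Eviprostat against obstruction/vehicle, 4 enzymes and 7 other genes for the interaction, and 0 members in limma's test in sham/Eviprostat against sham/vehicle and in obstruction/Eviprostat against sham/Eviprostat (3 and 2 at an unadjusted p under 0.05). In sham/Eviprostat against sham/vehicle the scanner's ratio gave 9 enzymes and 6 other genes, the replicate block 7 and 2, slides 2 and 3 only 6 enzymes, and Cy5 alone or no background correction 2 other genes. In obstruction/Eviprostat against sham/Eviprostat the scanner's ratio gave 8 enzymes and 5 other genes, the replicate block 7 enzymes, and slides 2 and 3 only 5 enzymes. With the scanner's ratio 9.48% of all probes passed in sham/Eviprostat against sham/vehicle and 11.9% in obstruction/Eviprostat against sham/Eviprostat. The block changed no call of a member beyond those given in the report and those of the interaction. The cause of these shifts was not tested.

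With single arrays left out, enzymes called ranged from 10 to 13 (other genes 10 to 11) in obstruction/vehicle against sham/vehicle, 8 to 12 (9 to 10) in obstruction/Eviprostat against obstruction/vehicle, 1 to 5 (0 to 1) in sham/Eviprostat against sham/vehicle, 2 to 4 (1 to 2) in obstruction/Eviprostat against sham/Eviprostat, and 9 to 13 (8 to 10) for the interaction. Over all probes, calls in obstruction/vehicle against sham/vehicle numbered 4191, against 1788 with median centring, 14480 with the scanner's ratio, 9125 with the replicate block, 7911 without background correction, 1834 with only the compared arrays and 2403 to 7196 with single arrays left out. In obstruction/Eviprostat against obstruction/vehicle they numbered 3536, against 1329, 13521, 8494, 7158, 1768 and 1890 to 6374, and 5374 in Cy5 alone. Sham/Eviprostat against sham/vehicle had 552, against 64, 3423 and 2282 with median centring, the scanner's ratio and the replicate block, 1135 on slides 2 and 3, and 231 to 537 with single arrays left out. Obstruction/Eviprostat against sham/Eviprostat had 823, against 140, 4279 and 3157, 2275 on slides 2 and 3, and 352 to 730. The interaction had 3127, against 1017, 11711 and 7919, 5830 without background correction, and 1819 to 5857. The upper ends of the first, second and last ranges came without replicate 2 of obstruction/vehicle. Pooled tissue, unequal amounts of labelled RNA, a fixed dye orientation and 3 arrays per group limit these values, and Slc2a3 was well above background on 9 arrays.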
